A study of Mus musculus with 9 samples.

Results

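The 71 tumours described here came from Lazy Piggy mice that were listed with tamoxifen and with a single number of tamoxifen days, and they were divided into animals with under 49 listed days (short, 34 animals) and animals with 49 or more (long, 37 animals). The members were the animals whose primary tumour libraries were listed as tamoxifen positive, out of 141 animals or control DNAs in the sample sheet and 72 animals with tamoxifen. The one tamoxifen animal left out had its identifier spelled in 2 ways with conflicting days, 143 and 43. Listed days ran from 4 to 48 in the short group (median 33.5) and from 49 to 249 in the long group (median 79). Close to the division, 1 animal was listed at 48 days, 2 at 49 and 1 at 50. The sources used here do not state what the days run from and to, the tamoxifen dose, the strain or the ages.

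The study sequenced transposon insertion sites in SHH medulloblastomas to look for genes that maintain the tumour. The pooled lanes are labelled with the Lazy Piggy genotype and their tumours as ones that Lazy Piggy induced, and the untreated animals share these labels. Labels of pooled lanes do not give the alleles of single animals. The 47 animals listed without tamoxifen gave the background for each value. Tumour DNA was amplified from the Sleeping Beauty ends (IR libraries), from the piggyBac ends (PB libraries) or from the boundary between both parts (JX libraries), and 9 pooled lanes were sequenced, so the animal is the replicate.

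SHH medulloblastoma is a cerebellar tumour that grows from granule neuron precursors with active Sonic hedgehog signalling, most often through loss of the receptor Ptch1. A transposon that inserts in or near a gene can raise or break its expression, and a site that many cells of a tumour share gives more reads than a site in a few cells. Sleeping Beauty and piggyBac are separate cut-and-paste transposons, and Lazy Piggy joins them in one element so that it can first be moved by Sleeping Beauty and later be moved again by piggyBac under the control of tamoxifen.

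Positions within 10 bp were merged. To be called in an animal, a site needed 10 counts or more and no less than 1% of the count at the top site of the same kind of library. Where several animals had the same called site, it was given only to the one with the largest share of its counts there. IR libraries were the deepest, with a median of 3123072.5 counts per animal in the short group and 3105262 in the long group. JX medians were 360511.5 and 467455 counts, and PB medians were 122540 and 275535, with single PB animals as low as 1714 and 1959. The donor element lay on chromosome 10 in 27 short and 25 long animals and on chromosome 7 in 7 short (20.6%) and 12 long (32.4%) animals. Of the 9 lanes, 8 held at least 2 animals of each group, but the groups were not spread evenly over them. By first lane, lane 5 held 3 short and 9 long animals, and lane 8 held 6 and 2.

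JX calls differed in kind from the others. Before crediting, 82.7% of the 11343 JX calls in short animals and 82.1% of the 6388 in long animals were also called in another animal. For IR these shares were 17.1% and 13.7%, and for PB 9.58% and 8.40%. After crediting, 46.9% of JX sites in short animals and 44.4% in long animals still lay at positions spread over animals, which means that at least 3 animals listed them and none held over 50% of the counts. The same share was about 1% for IR (0.962% and 1.10%) and under 2% for PB (1.80% and 1.35%). Among IR libraries, 1 pair of long animals, of 118 and 164 days, shared 7 called sites, 63.6% of the smaller set. Pairs across the groups shared called IR sites too. A 37-day and a 92-day animal shared 3, with 5 sites in the smaller set. The 233-day animal, with 8 called IR sites before crediting, shared 4 with each of 3 short animals, of 13, 28 and 37 days.

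Short and long tumours had medians of 10 to 13 called sites in IR and PB libraries. In IR the short animals had from 1 to 130 sites with a median of 12, and the long animals had from 4 to 334 with a median of 13. The means were 18.4 ± 22.6 (SD, n = 34) and 24.7 ± 53.9 (SD, n = 37), which did not differ beyond the spread between animals (two-sided permutation test, p = 0.700, adjusted p = 0.739 over the 3 kinds of library). The higher mean of the long group rested on 1 animal of 88 days with 334 IR sites, whose IR libraries were also the shallowest at 295999 counts. Without it the difference of long minus short turned from 6.32 to -2.27 sites. PB gave from 3 to 187 sites in short animals (median 11) and from 1 to 159 in long animals (median 10), with means of 29.4 ± 44.4 and 26 ± 37.7 (permutation p = 0.739, adjusted p = 0.739). Without 1 short animal of 37 days with 187 PB sites, that difference turned from -3.38 to 1.40. Animals without tamoxifen had a median of 13 IR and 15 PB sites.

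JX libraries gave more sites in short animals, but with wide overlap. Because a site is called relative to the top site, the number of sites and the share at the highest site are not independent measures. The 37-day animal with 689 JX sites, for example, had 1.72% of its JX counts at the highest one. The short group ranged from 4 to 689 called JX sites with a median of 34, and the long group from 1 to 382 with a median of 13. The means were 81.9 ± 135 and 43.1 ± 71.8, a difference of -38.9 sites that did not pass the test (permutation p = 0.130, adjusted p = 0.389). Leaving out the short animal of 37 days with 689 JX sites left a difference of -20.5. Untreated animals lay between, with a median of 25 (from 2 to 336). Long animals had the higher mean number of sites in 5 of 8 lanes for IR, 4 of 8 for JX and 3 of 8 for PB.

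**Figure D1:**
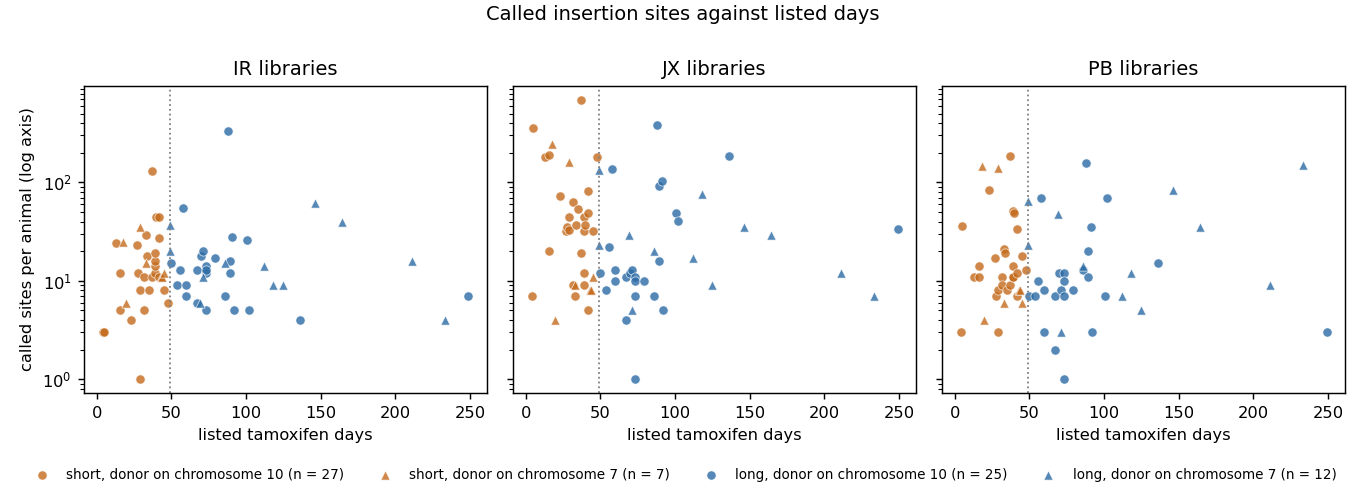
Called sites per animal (log axis) against listed tamoxifen days in IR, JX and PB libraries, with 1 point per animal, circles for donors on chromosome 10, triangles for chromosome 7 and a dotted line at 49 days. The IR and PB clouds of both groups overlap around medians of 10 to 13 sites, and in JX the short animals spread to higher numbers (median 34 against 13).

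Clonality was read from the share of an animal's counts at its highest site, which is large when 1 insertion dominates the library. In IR the highest site held from 4.98% to 93.0% of the counts in short animals (median 25.0%) and from 6.19% to 68.6% in long animals (median 21.6%). The means were 28.8% ± 18.2 and 23.8% ± 11.6 (permutation p = 0.177, adjusted p = 0.266). JX highest sites held 17.4% ± 18.2 in short and 22.9% ± 15.6 in long animals (p = 0.174, adjusted p = 0.266, permutation), with medians of 7.09% and 21.8%. PB highest sites held 35.3% ± 16.3 and 38.7% ± 21.1 (permutation p = 0.458, adjusted p = 0.458). Both groups held libraries with 1 dominant insertion and libraries with many small ones, and they overlapped over most of their range. With the division at 30 days, the highest-site share was 37.1% below and 23.8% above in IR (permutation p = 0.00429, adjusted p = 0.0129) and 10.8% and 22.3% in JX (permutation p = 0.0253, adjusted p = 0.0380), so both passed there. The untreated animals had means of 27.6%, 18.7% and 33.9% for IR, JX and PB. Long animals had the higher mean in 3 of 8 lanes for IR, 5 of 8 for JX and 4 of 8 for PB.

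The effective number of sites, the exponential of the Shannon entropy of the called sites' counts, passed the test in no kind of library. Its mean was 9.87 ± 14.8 in short and 12.4 ± 25.9 in long animals for IR (permutation p = 0.669, adjusted p = 0.781), and 12.1 ± 21.5 and 10.7 ± 17.6 for PB (permutation p = 0.781, adjusted p = 0.781). In JX it was 37.9 ± 80.1 in short and 16 ± 24.8 in long animals (permutation p = 0.0861, adjusted p = 0.258), and without the 37-day animal with 689 JX sites the difference of -21.8 became -9.41. Long animals were higher in 4 of 8 lanes for IR and 3 of 8 for JX and PB.

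**Figure D2:**
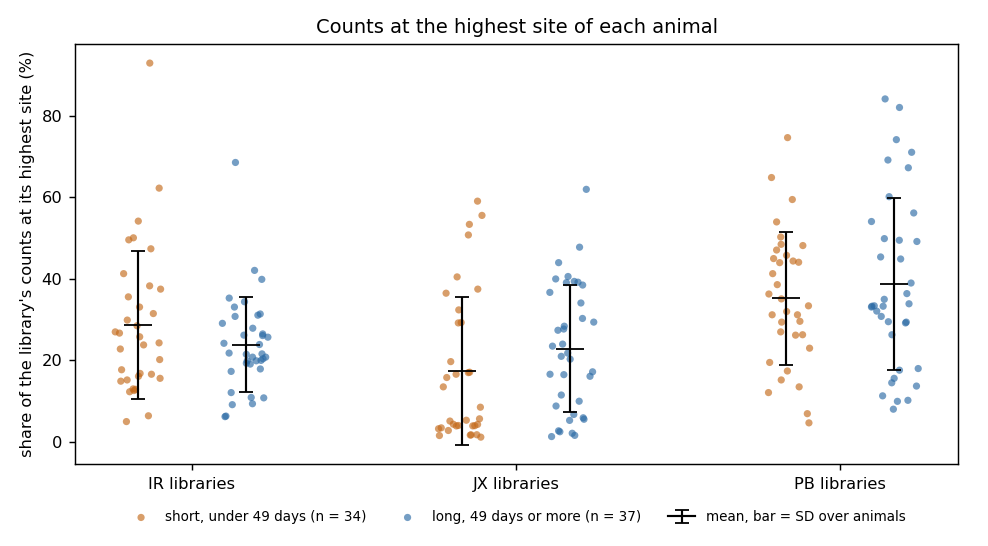
Share of a library's counts at its highest site, in percent, for each animal of the short (n = 34) and long (n = 37) groups, with the mean and SD over animals. In each kind of library the groups overlap over most of their range, and their means lie within 5.49 percentage points of each other.

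Whether the highest credited site of a tumour was the same in its 3 kinds of library was asked after the values had been seen. Here the highest site is taken among the sites credited to the animal, so it was not always the animal's own highest site. In 1 animal of 73 days, the PB site used held 7.21% of the counts, while its own highest held 33.9%. The highest IR and PB sites lay within 1000 bp of each other in 20 of 34 short animals (58.8%) and 12 of 37 long animals (32.4%), which did not pass Fisher's exact test after adjustment over the 9 such counts made (p = 0.0330, adjusted p = 0.297). The highest IR and JX sites coincided in 18 short and 13 long animals (Fisher's exact p = 0.156, adjusted p = 0.702), and the highest JX and PB sites in 19 and 23 (Fisher's exact p = 0.635, adjusted p = 0.953). A highest site could also recur in another animal. In a 33-day animal, 59.1% of the JX counts lay at position 111903665 in intron 2 of Cdh7 (mm9, chromosome 1). The same position held 38.3% of the IR counts of a 37-day animal, as its highest IR site. Both animals were in lane 4, and the cause was not tested.

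Among the measures taken per animal, the composition of the called sites gave the lowest adjusted p. IR libraries gave 24.1% ± 15.8 of the called sites of a short animal (from 0.752% to 50.9%, median 25.1%) and 32.2% ± 16.3 of those of a long animal (from 1.95% to 71.4%, median 36.8%). JX libraries gave 51.9% ± 22.4 in short animals (from 12.3% to 90.9%, median 49.4%) and 40.7% ± 18.5 in long animals (from 4.38% to 90.7%, median 35.3%). The difference was 8.16 percentage points for IR and -11.2 for JX, and both had an adjusted p of 0.0537, which misses 0.05 (permutation, unadjusted p = 0.0358 and 0.0243). PB shares were 24% ± 11.9 and 27.1% ± 16.5 (permutation p = 0.392, adjusted p = 0.392). The untreated animals had means of 24.7% for IR, 48.8% for JX and 26.6% for PB. The shares of raw counts by kind passed no test, with IR at 78.9% and 77.5%, JX at 13.1% and 14.8% and PB at 8.08% and 7.69% (adjusted p = 0.876 each, permutation).

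**Figure D3:**
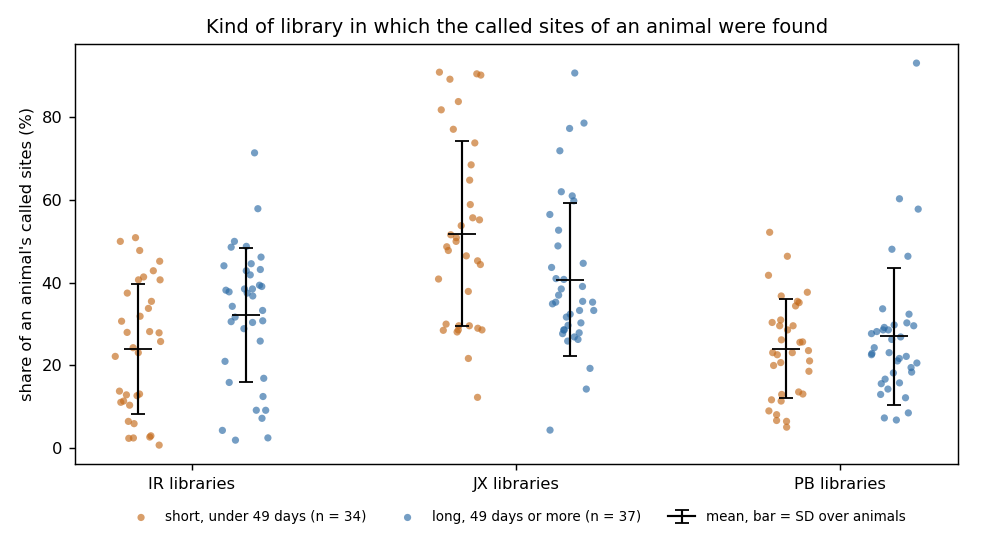
Share of each animal's called sites found in IR, JX and PB libraries, in percent, for the short (n = 34) and long (n = 37) groups, with the mean and SD over animals. The JX mean is 51.9% in short and 40.7% in long animals, and the groups overlap over most of their range.

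The JX share moved with the depth of the JX libraries and with the positions shared between animals. Across all 71 animals, those with fewer JX counts had a larger JX share (Pearson's r = -0.60 with log10 counts, permutation p = 1.00e-05, adjusted p = 6.00e-05; Spearman's rho = -0.65, permutation p = 1.00e-05, adjusted p = 3.00e-05 over 6 relations). That unadjusted p is the smallest the permutations can give. Without the 2 animals farthest from the median depth r was -0.59. Within the groups rho was -0.68 in short and -0.61 in long animals, and it was below 0 in 7 of 7 lanes with at least 6 animals. With the libraries of each kind thinned to equal counts, which left out 1 animal of each group, the JX difference was -12.0 percentage points (permutation p = 0.0139, adjusted p = 0.0416) and the IR difference 7.84 (adjusted p = 0.0585). When the positions spread over animals were left out, the JX difference fell to -3.81 percentage points (39.9% and 36.1%, permutation p = 0.273, adjusted p = 0.410), and the IR difference was 6.16 (adjusted p = 0.227). When animals were permuted within their lane, the JX and IR differences had adjusted p-values of 0.183 and 0.220. Long animals had the higher JX share in 2 of 8 lanes and the higher IR share in 5 of 8. With all called sites counted in every animal that had them, the JX shares were 66.3% and 53.4% (permutation p = 0.0477, adjusted p = 0.0868).

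**Figure D4:**
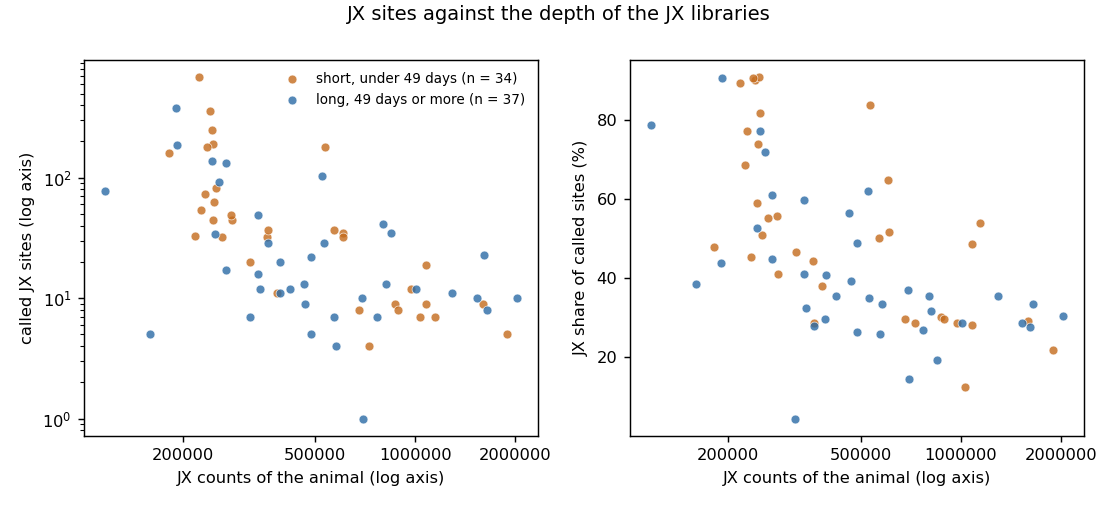
Called JX sites (log axis, left) and the JX share of called sites (percent, right) against the JX counts of each animal (log axis), coloured by group. Animals of both groups with few JX counts have the most JX sites and the largest JX shares (Spearman's rho = -0.66 and -0.65 over 71 animals).

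Where the division was set mattered for the composition. With 30 days in place of 49 there were 13 animals below and 58 above, and the JX share was 62.9% below and 42.3% above (adjusted p = 0.00180, permutation), with IR at 15.2% and 31.3% (adjusted p = 0.00180). At 70 days the JX shares were 49.3% and 40.4% (permutation, adjusted p = 0.158). Among donors on chromosome 10 the IR shares were 21.7% and 33.6% (permutation, adjusted p = 0.0212) and the JX shares 55.6% and 42.8% (permutation, adjusted p = 0.0462). Among donors on chromosome 7 they were 33.2% and 29.4% for IR and 37.5% and 36.4% for JX (adjusted p = 0.900 each, with 7 and 12 animals, permutation). The tests at other divisions and within donors had no covariate for lane or depth. The difference between the donor chromosomes in the IR contrast was 15.6 percentage points (permutation p = 0.0763, adjusted p = 0.585 over 23 measures).

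An IR site with JX counts near it is one where the boundary of both parts was also read. The share of called IR sites with at least 1 JX count within 100 bp was 97.3% ± 6.37 in short and 94.8% ± 17.8 in long animals (permutation p = 0.530). The median was 100% in both groups, and the 88-day animal with 334 IR sites was lowest at 4.49%. A PB site that had neither IR nor JX counts in the 100 bp around it is one where only the piggyBac ends were read. Such sites made up 37.7% ± 23.9 of the PB sites of short animals (from 0 to 91.9%) and 32.6% ± 24 of those of long animals (from 0 to 80.0%), with 34.1% ± 21.8 in untreated animals (short against long, permutation p = 0.368). Long animals had the higher share in 2 of 8 lanes for the first measure and 3 of 8 for the second. In the left-end libraries alone the long animals had 13.0 percentage points fewer PB sites away from the other kinds (permutation p = 0.0375, a family of 1).

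Transposons often land again near the place they leave, and the donor chromosome held a large share of sites in both groups. In IR it held 32.4% ± 22.5 of the sites in short and 23.9% ± 16 in long animals (permutation p = 0.0680, adjusted p = 0.186), beside 27.8% ± 14.3 in untreated animals. In PB it held 30.5% ± 15.7 and 24.3% ± 18.1 (permutation p = 0.124, adjusted p = 0.186), and in JX 20.8% ± 14.8 and 19.6% ± 13.6 (permutation p = 0.710, adjusted p = 0.710). Long animals had the higher share in 1 of 8 lanes for PB, 2 of 8 for IR and 3 of 8 for JX. With the division at 70 days the PB share was 12.7 percentage points lower above it (adjusted p = 0.00543, permutation), and between the 23 animals with the fewest and the 23 with the most days the difference was -11.7 (permutation, adjusted p = 0.0353). At 30 days it was 4.08 in the other direction (permutation, adjusted p = 0.441).

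The mean share of sites in gene bodies was 51.0% in short and 47% in long animals for IR, 43.7% and 46.4% for JX and 51.2% and 51.0% for PB (adjusted p = 0.623, 0.623 and 0.962, permutation). Pooled over animals, introns held 45.5% of the 624 short and 48.6% of the 913 long IR sites, and exons 2.24% and 3.40%. The 88-day animal alone gave 334 of the long sites, with 63.2% of them in gene bodies. The pooled shares therefore lean towards the long group, while the means per animal do not. Pooled in the same way, the orientation matched that of the listed gene in 49.5% of short and 52.0% of long IR sites with a listed gene.

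No gene passed a test for a different hit frequency in short and long tumours. The number of genes with a called site was 984 for IR, 2589 for JX and 1269 for PB. Of these, 26, 111 and 28 were hit in at least 3 animals and tested with Fisher's exact test. None passed an adjusted p of 0.05 in any kind (0% called), and the lowest adjusted p was 0.625 for IR, 0.581 for JX and 0.717 for PB. An unadjusted p under 0.05 was reached by 1 IR gene (3.85% of those tested), 3 JX genes (2.70%) and 1 PB gene (3.57%). With these group sizes Fisher's exact test of a gene hit in 3 animals cannot go below p = 0.105, and one hit in 4 animals cannot go below 0.0477. Of the 111 JX genes, 86 were hit in a larger share of short animals and 25 in a larger share of long animals, beside 2786 and 1593 called JX sites in all. The corresponding numbers were 15 and 11 in IR and 17 and 11 in PB.

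The genes hit most often with both groups pooled, Ppp1r12a and Otogl, lie on chromosome 10. Ppp1r12a, a myosin phosphatase targeting subunit, had a called IR site in 11 short (32.4%) and 7 long animals (18.9%), a JX site in 9 and 5, and a PB site in 12 (35.3%) and 9 (24.3%). None of these differences passed the test (Fisher's exact p = 0.276, 0.235 and 0.436). Otogl, an inner ear matrix protein, was hit in 7 and 9 animals for IR, 9 and 9 for JX and 5 and 7 for PB, and its direction turned with several settings. In untreated animals 17.0% had a Ppp1r12a site and 23.4% an Otogl site in IR. Nav3, a neuron navigator protein, was hit in 3 short and 6 long animals in IR (Fisher's exact p = 0.482), and in 5 of each group in PB. Syt1, the calcium sensor of synaptic vesicles, was hit in 7 short and 3 long animals in PB (Fisher's exact p = 0.178). Ppfia2, a synaptic liprin, was hit in 7 and 2 animals in JX (Fisher's exact p = 0.0771, adjusted p = 0.581).

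**Figure D5:**
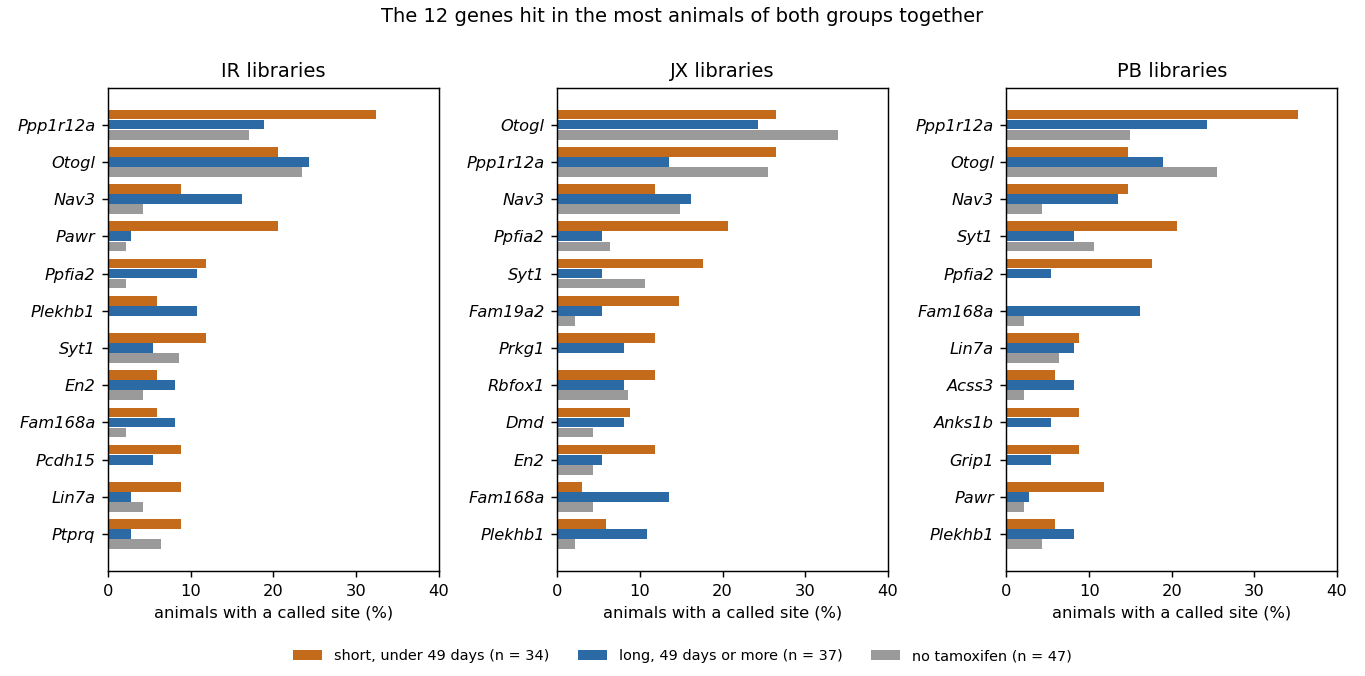
Percent of animals with a called site for the 12 genes hit in the most animals of both groups, in IR, JX and PB libraries, for short, long and untreated animals. With both groups pooled, Ppp1r12a and Otogl lead in each kind of library, while Pawr is higher in short animals (20.6% against 2.70% in IR), and Fam168a appears in long animals only among the tamoxifen PB libraries (16.2%).

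Pawr, which encodes a pro-apoptotic regulator, gave the lowest p in IR and JX. It is on the list of genes around the chromosome 10 donor. That list, Pawr included, was hit in IR in 23 short (67.6%) and 17 long animals (45.9%), or 21 of 27 and 16 of 25 with that donor. Because this total counts the Pawr hits too, it cannot show whether the lean to short animals was particular to Pawr. Other members of the list went both ways in IR, with Ppp1r12a in 11 short and 7 long animals, Otogl in 7 and 9, and Nav3 in 3 and 6. Pawr had a called IR site in 7 of 34 short animals and 1 of 37 long animals (Fisher's exact p = 0.0240, adjusted p = 0.625) and in 1 of 47 untreated animals. The short IR sites came from animals of 4, 33, 34, 37, 39, 39 and 40 days, each with a donor on chromosome 10. They lay from position 107776943 in intron 2 to position 107930023, listed 78.576 kb beyond the 3′ end (mm9, chromosome 10), and each held from 0.0545% to 4.17% of the animal's IR counts. The long IR site, in the 88-day animal, lay in intron 3 and held 0.0804%. In JX, Pawr was hit in 5 short and 0 long animals (Fisher's exact p = 0.0214, adjusted p = 0.581), with up to 9.12% of the JX counts at position 107790454 in intron 2 in a 39-day animal. That animal had its PB site at position 107790433, with 9.75% of the PB counts. Over all kinds, Pawr was hit in 10 short and 2 long animals, and among donors on chromosome 10 in 9 of 27 and 1 of 25. With sites down to 0.1% of the highest, Pawr was hit in IR in 12 animals of each group, and with gene bodies alone it was hit in 3 and 1. With the division at 30 days, the IR direction turned to 1 of 13 animals below and 7 of 58 above, a difference of 4.38 percentage points (Fisher's exact p = 1.0).

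Fam168a and Plekhb1 lie beside each other on chromosome 7, and their hits followed the donor there. Fam168a was hit in PB in 0 short and 6 long animals (Fisher's exact p = 0.0256, adjusted p = 0.717) and in 1 untreated animal. In JX it was hit in 1 short and 5 long animals (Fisher's exact p = 0.201), while in IR the numbers were 2 and 3. Over all kinds, Fam168a was hit in 2 of 7 short and 5 of 12 long animals with a donor on chromosome 7, and in 0 of 27 and 1 of 25 with a donor on chromosome 10. The largest Fam168a site was in that long animal of 79 days with a donor on chromosome 10, in intron 3 at position 107953297 (mm9, chromosome 7). It held 9.48% of the IR counts, 23.4% of the JX counts and, at position 107953347, 24.5% of the PB counts. Plekhb1, a pleckstrin homology domain protein of neurons, was hit over all kinds in 2 short and 6 long animals, and each had a donor on chromosome 7.

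Cntn1 and Odz4, a contactin and a teneurin of neuronal adhesion, were the other genes under an unadjusted 0.05, both in JX with 4 short and 0 long animals (Fisher's exact p = 0.0477, adjusted p = 0.581). Of the 4 Cntn1 sites, 3 lay at positions spread over animals, all 4 lay in intron 1, and their shares of the JX counts ran from 0.0680% to 0.243%. The 4 Odz4 sites held from 0.0137% to 0.461%, and Odz4 was also hit in 1 short and 2 long animals in IR. Counted in every animal that called them, Cntn1 JX sites were found in 13 short and 3 long animals (Fisher's exact p = 0.00374, adjusted p = 0.309).

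Among the genes tested in IR, 2 were hit in long animals only. Klf6, a zinc finger transcription factor, had IR sites in 3 long animals of 71, 73 and 164 days and in no short animal, with 0.284% to 1.01% of the IR counts. Dner, a Notch ligand of the nervous system, had IR sites in 3 long animals of 88, 164 and 211 days, of which the strongest held 2.16%. For both genes Fisher's exact p was 0.241. The 88-day animal was the one with 334 IR sites, and the 164-day animal was in the pair that shared 7 called IR sites. Klf6 had no called JX or PB site, while Dner had JX sites in 2 long animals and a PB site in 1. Fam19a2, a secreted brain chemokine-like protein, had IR sites in 3 short animals and in 0 long animals (Fisher's exact p = 0.105), with up to 6.51% of the IR counts in a 42-day animal. Sfi1, a centrosomal protein gene on the list of loci open to wrong mapping, likewise had IR sites in 3 short and 0 long animals (Fisher's exact p = 0.105), so that 2 tested IR genes were hit in short animals only. Fam19a2 also had JX sites in 5 short and 2 long animals.

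The genes around the chromosome 10 donor, a list of 32 of which 28 had a called site, were hit in any kind of library in 28 of 34 short animals (82.4%) and 20 of 37 long animals (54.1%). Among animals with the donor on chromosome 10 the numbers were 25 of 27 and 18 of 25. The 12 list members tested in IR had a median difference of -4.77 percentage points in the share of animals hit, beside -3.18 for all genes tested. In PB the medians were -6.12 over 11 members and -0.954 over all genes. The list of genes around the chromosome 7 donor was hit in 9 short and 9 long animals, or 5 of 7 and 7 of 12 animals with that donor.

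Of 28 SHH pathway genes, 7 were hit in any kind of library, in 3 short (8.82%) and 3 long animals (8.11%). Ptch1, the receptor that restrains the pathway, had no called site in any of the 71 animals. Gli3, a transcription factor of the pathway, was hit in 2 short animals, of which the one of 29 days carried IR, JX and PB sites downstream of the gene with 1.02%, 0.508% and 1.93% of the counts. Prkacb, a catalytic subunit of protein kinase A, was hit in 2 short animals. The 27 genes mutated in human SHH medulloblastoma were hit in 3 short and 8 long animals, and in IR in 0 and 4. The called IR sites in all were 624 and 913, but 334 of the long ones came from the 88-day animal alone. The 23 genes of mouse SHH tumour models, which share members with the human list, were hit in 14 short and 9 long animals, or 9 and 8 without the positions spread over animals. In JX they were hit in 10 and 6 animals, beside 2786 and 1593 called JX sites in all, and in IR in 3 and 4 animals.

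Growth signalling genes were hit in JX in 15 short (44.1%) and 5 long animals, with 23 and 7 hits from 20 members, and in IR in 4 and 3 animals. These counts stand beside 2786 and 1593 called JX sites in all. The 4 list members tested in JX had a median difference of -6.00 percentage points beside -3.18 for all genes tested. Without the positions spread over animals the JX numbers were 8 and 3, and over all kinds they were 9 and 7 in place of 16 and 8. Erbb4, a receptor tyrosine kinase, was hit in any kind in 5 short and 0 long animals, and Igf1, a growth factor, in 3 and 0. Of the Erbb4 sites, the one at position 68507841 in intron 3 (mm9, chromosome 1) was credited in IR to a 33-day animal with 3.19% of the counts and in JX to a 37-day animal with 2.46%, so 1 position was read in 2 animals. Granule neuron lineage genes were hit in 10 short and 7 long animals and without the spread positions in 6 and 6. In JX they were hit in 8 and 4 animals, beside the same 2786 and 1593 JX sites. Nfia, a nuclear factor of that lineage, was hit in 3 short and 0 long animals, and Dcc, a netrin receptor on the same list, in 2 and 4.

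Chromatin regulators were hit in 8 short and 11 long animals, and synaptic adhesion and very long genes in 19 and 18. Cell cycle and DNA damage genes were hit in 3 and 4. En2, Foxf2 and Sfi1, kept as a list of loci open to wrong mapping in transposon screens, were hit in 7 and 7. The called sites in all were 624 and 913 for IR, 2786 and 1593 for JX, and 998 and 961 for PB. No member of the SHH pathway, chromatin or growth lists was hit in 3 or more animals in IR or PB, so none was tested there.

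Potassium channel genes were hit in 11 short (32.4%) and 9 long animals over all kinds, with 22 and 18 hits from 30 members. By kind the numbers were 3 and 4 animals for IR, 9 and 5 for JX and 5 and 7 for PB, and no member was hit in enough animals to be tested. Without the positions spread over animals the JX numbers were 5 and 3. The called JX sites in all were 2786 and 1593. Kcnb2, a voltage-gated channel subunit, had 1 called site, in JX in an 18-day animal, at a position spread over animals and with 0.0246% of the JX counts. Kcnh2, a channel of cardiac and neuronal repolarisation, had PB sites in 2 long animals, of which the one of 73 days held 3.04% in intron 9.

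The animals at both ends of the range of days differed in their highest sites, from single sites with most of the counts to sites with about 10%. In the animal of 4 days, 54.2% of the IR counts lay at position 107607535 in intron 1 of Ppp1r12a (mm9, chromosome 10), 1 of its 3 IR sites, while its highest PB site, with 41.3%, lay 14.156 kb upstream of Sptlc1 on chromosome 13. The animal of 5 days had 62.3% of the IR counts in intron 7 of Plcg2, a phospholipase, and also 360 called JX sites, of which the highest held 1.15%. In 1 animal of 16 days the highest IR, JX and PB sites lay together upstream of 2300009A05Rik on chromosome 9, with 24.3%, 5.31% and 29.6% of the counts. At the other end, the animal of 249 days had 35.3% of the IR counts in intron 2 of Prdm16, a zinc finger regulator, and 74.2% of the PB counts in intron 1 of Eed, a Polycomb subunit that also held its highest JX site. The animal of 164 days had its highest JX and PB sites in intron 3 of Rnf144a, with 9.98% and 11.3%, and the animal of 146 days had 62 IR sites of which the highest, in intron 8 of Ext2, held 9.13%. The animal of 233 days had 149 PB sites from 10515 PB counts, and 93.1% of its called sites were PB.

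Treated as a continuous value, listed days passed the test with none of the 23 measures after adjustment. The lowest unadjusted p-values over the 71 animals came with the JX share of called sites (Pearson's r = -0.19, p = 0.123, adjusted p = 0.564; Spearman's rho = -0.27, p = 0.0244, adjusted p = 0.425, permutation) and with the PB share on the donor chromosome (r = -0.26, p = 0.0309, adjusted p = 0.493; rho = -0.21, p = 0.0740, adjusted p = 0.425, permutation). Without the 2 animals farthest from the median day r was -0.22 and -0.13. Within lanes of at least 6 animals, the relation was positive in 1 of 7 lanes for each.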

How the data were processed

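Whole-number counts per insertion position and library were used as deposited by the authors, without scaling, on mm9, per the submitters' processing notes. The sources used here do not give the aligner, counting rule or annotation. Arm, donor chromosome, lane and days came from the authors' sample sheet. Library ends and repeat lanes were summed per animal (450 libraries; 4 of the animals in 2 lanes). Crediting ran over the 119 animals with a given arm. The highest-site share uses sites before crediting; it was first computed after crediting and changed after a first look. Means were compared with two-sided permutation tests (100000 resamples), and genes with Fisher's exact tests, adjusted by Benjamini-Hochberg over kinds or, for genes, within a kind (Python 3.11.15, scipy 1.17.1). PCR reads carry no molecular identifiers, and nothing states how the lanes' tumours were sampled. Tests were tried on simulated data. Members, lists and rules were chosen with earlier results of these data known. Named genes were the 8 hit most often per kind and group, the 6 with the lowest p per kind, up to 3 per list with at least 2 animals, Ptch1, Kcnb2 and those at the highest IR and PB sites of the 5 animals at each end of the days; not all are printed, and some results are not reported here. Alternatives changed the call, split, donor, lane and credit; depth limits JX and PB. No genome of the build was at hand, so no sequence is shown.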

Additional observations from a re-analysis of the deposited data

Results flagged for a closer look

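The contrast of long minus short in the share of the highest JX site differed between the donor chromosomes by 21.9 percentage points. With the donor on chromosome 10 the share rose from 14.5% ± 16.2 (n = 27) to 25.4% ± 17.0 (n = 25), and with the donor on chromosome 7 it went from 28.5% ± 22.2 (n = 7) to 17.5% ± 10.9 (n = 12). The permutation p of the difference was 0.0183 and 0.422 after adjustment over the 23 measures tested in this way.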

How the results depend on the processing

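All values here are long minus short, in sites, percentage points or, for genes, percentage points of animals hit. The number of genes past an adjusted p of 0.05 was 0 under each alternative run. The direction of the JX site number, of the JX share of called sites and of the IR share on the donor chromosome held under each alternative, from -161 to -8.95 sites, -20.6 to -1.05 points and -10.8 to -5.38 points. The difference in the JX and IR shares of called sites passed 0.05 with a minimum of 50 counts (-12.6 and 8.40), with a division at 30 days (-20.6 and 16.1), with donors on chromosome 10 (-12.9 and 11.9) and without the animals at 49 days (-11.4 and 8.46), and the JX share also with positions merged within 100 bp (-12.1) and with thinned counts (-12.0). When each animal was left out in turn, the JX share ran from -12.6 to -10.0 and the IR share from 7.07 to 9.0, and 21 of 71 omissions brought each under 0.05. The PB share away from IR and JX passed in left-end libraries (-13.0). The PB share on the donor chromosome passed with a division at 70 days (-12.7) and between the fewest and most days (-11.7), and the share of the highest site passed at 30 days in IR (-13.3) and JX (11.5).

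Several differences that had not passed changed direction. At 0.1% of the highest site these were the number of IR sites (-51.0), their effective number (-23.5), IR sites with JX counts (9.63), JX sites on the donor chromosome (2.73) and Otogl in IR (-9.22), JX (1.59) and PB (-3.34). At 5% they were the number of PB sites (1.52), their effective number (1.02), JX sites in gene bodies (-0.383) and Otogl in JX (4.45). Merging within 100 bp turned PB sites (1.46), their effective number (0.925) and Otogl in JX (0.795). Left-end libraries turned IR sites (-4.43), their effective number (-2.03), the PB share of counts (0.299), JX sites on the donor chromosome (0.340), PB sites in gene bodies (1.65) and Otogl in PB (-1.43). Thinned counts turned PB sites (0.654) and their effective number (0.965), and leaving out spread positions turned the PB share of called sites (-2.35). At 30 days IR sites with JX counts (0.267), the PB share of counts (4.66), the JX and PB shares on the donor chromosome (8.37 and 4.08), Pawr in IR (4.38) and Otogl in JX (2.79) turned. At 70 days the effective number in PB (1.47), the PB share of counts (1.31), JX sites in gene bodies (-1.73) and Otogl in JX (2.48) turned. Between the fewest and most days the PB share of counts (1.83) and JX sites in gene bodies (-0.696) turned, and Otogl in IR was at 0.

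With donors on chromosome 10, PB sites in gene bodies turned (1.42). With donors on chromosome 7, the highest-site shares in IR (1.74), JX (-11.0) and PB (-7.51), IR sites with JX counts (6.04), the IR share of called sites (-3.73), the JX and PB shares of counts (-1.89 and 3.87) and PB sites on the donor chromosome (1.2) turned. On ranks, IR sites with JX counts (1.24 ranks), the PB share of counts (4.91 ranks) and PB sites in gene bodies (2.82 ranks) turned, and with gene bodies alone Otogl in JX (1.51). Of the alternatives chosen after seeing the data, the 2 spellings taken as 2 animals turned JX sites on the donor chromosome (0.103) and PB sites in gene bodies (0.0218), leaving out animals under 10000 PB counts turned PB sites in gene bodies (2.58), and counting sites in every animal turned PB sites in gene bodies (1.05) and Otogl in JX (3.26). Leaving out single animals turned IR sites (range -2.27 to 9.71), their effective number (-1.59 to 4.97), PB sites (-7.08 to 1.40), their effective number (-3.42 to 1.66), IR sites with JX counts (-3.20 to 0.0803), the PB share of counts (-1.39 to 0.727), JX sites on the donor chromosome (-2.26 to 0.0381), PB sites in gene bodies (-1.59 to 1.25) and Otogl in JX (-4.25 to 0.0819). The cause was not tested. Thinned counts give no value for the shares of counts by kind. JX sites shared between animals and shallow PB libraries limit what these data resolve. No paired analysis was possible because the labels give the groups no shared replicate numbers.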
